A study of Mus musculus with 21 samples.

Results

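Mouse embryonic fibroblasts (MEFs) carrying the PIB factor set were compared at day 9 and at day 3 after transduction. The cells were chosen by the library name in their barcode labels, which left 616 cells of the day 9 library and 707 cells of the day 3 library, 1323 of the 25991 cells in the deposited table. PIB stands for Pu.1 (the protein of the gene Spi1), Irf8 and Batf3, the last of which the labels spell Baft3. Both libraries came from MEFs of genotype Clec9aCre/Cre Rosa26stopflox-tdTomato/tdTomato, which turn on tdTomato for good once Cre is made from the Clec9a locus. After lentiviral transduction the cells were kept on gelatin in DMEM with 10% FBS, and live (DAPI-) tdTomato+ cells were sorted, so cells that had not switched on the reporter are in neither library. Each day had 1 library of polyadenylated RNA, made with 10x Chromium chemistry that reads the 3' end (v3.1) and counts each captured transcript once through a unique molecular identifier (UMI).

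Other libraries stood beside them. The same reporter line carried the sets PI8 (Pu.1, Irf8), PI4 (Pu.1, Irf4), PIP (Pu.1, Irf4, Prdm1), SI8 (Spib, Irf8) and SII (Spib, Irf8, Ikzf2), and hCD2Cre/WT Rosa26stopflow-YFP/WT MEFs sorted as YFP+ carried SI8 and SII, each at both days. Wildtype splenic type 1 conventional dendritic cells (cDC1), sorted as live CD11c+MHC-II+CD8alpha+ cells, made up 1 library. Wildtype MEFs without a factor set, sorted as live cells, made up 2 libraries.

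cDC1 are antigen-presenting cells that take up dead cells and show their proteins to CD8 T cells. PU.1 is the pioneer factor of myeloid cells, IRF8 sets the cDC1 and monocyte fates together with PU.1, and BATF3 keeps IRF8 on in committed cDC1. The 3 together are known to turn fibroblasts into cells with features of cDC1, a process in which genes of the fibroblast are put down and genes for antigen presentation come up over days.

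The day 9 library held 38743525 UMIs (median 64579 per cell) and the day 3 library 47373112 UMIs (median 67270 per cell), and no cell barcode was shared between them. Every day 3 cell had at least 1 Spi1 UMI, although the mean was only 2.06 per cell, whereas 175 of the 616 day 9 cells had none at a mean of 3.1. Irf8, with a mean of 2.21 UMIs at day 3, was absent from 45 of those 707 cells. The PI8 day 9 library was the other one without a Spi1-free cell. Whether cells of these libraries were kept by their Spi1 count before deposit is not given in the sources used here, and it would touch every ratio of the days. Results were therefore also computed over the 441 day 9 cells with a Spi1 UMI. At day 9, 4 cells had 102 to 207 Tyrobp UMIs each, no other cell of either library had more than 1, and results are given without these 4 cells where they matter. Mitochondrial genes gave a median of 1.74% of a cell's UMIs at day 9 and 2.36% at day 3, and Gm42418, AY036118 and Lars2, which move with RNA quality, gave 0.431% of UMIs at day 9 and 0.284% at day 3. The part of these differences in the results was not tested.

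Levels are CPM, the UMIs of a gene summed over all cells of a library and scaled to that library's total UMIs. With 1 library per day there is no replicate and no test between the days. Ratios are day 9 over day 3, followed in brackets by their exact 95% counting interval, which covers counting error only. A gene was measured when it reached 5 CPM in either library, and it counted as higher or lower when the ratio was at least 2 or at most 0.5. Fewer cells that make an RNA and less of that RNA per cell cannot be told apart in these sums.

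Of 9477 measured genes, 526 (5.55%) were higher at day 9, 220 (2.32%) were lower and 746 (7.87%) differed in either direction. The counts given for each list below are to be read against these shares. The median log2 ratio was 0.12. It was -0.02 with TMM scaling, which gave 393 higher and 314 lower, and -0.04 with DESeq2 size factors, which gave 375 higher and 323 lower, so list medians are to be read against 0.12. Next to the thresholds, Chpf (ratio 2.00) and Echs1 (0.499) were just inside and Ifrd1 (1.99) and Col1a1 (0.501) just outside. Across the measured genes the 2 PIB libraries were alike (Spearman 0.951, a description over genes). Against splenic cDC1 the coefficient was 0.594 for day 9 and 0.627 for day 3, and against the MEF libraries it was 0.822 and 0.824 for day 9 and 0.817 and 0.820 for day 3. Of 528 genes at least 8-fold higher in splenic cDC1 than in both MEF libraries and at 20 CPM or more there, 239 reached 5 CPM at day 9 and 226 at day 3, and their summed level was 42991.1 CPM at day 9 and 44032.2 CPM at day 3. Of 950 genes higher in the MEFs than in splenic cDC1 by the same rule, 854 reached 5 CPM at day 9 and 837 at day 3, with a summed level of 132524.8 CPM at day 9 and 117464.2 CPM at day 3. On the CPM scale both sets thus had more genes at 5 CPM at day 9, and only the MEF set had a higher sum. The count of all genes at 5 CPM at each day was not computed, nor were these sums with TMM scaling. Among their measured genes, the median log2 ratio was 0.07 for the cDC1 set and 0.28 for the MEF set. With TMM scaling these medians were -0.07 and 0.14.

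**Figure D1:**
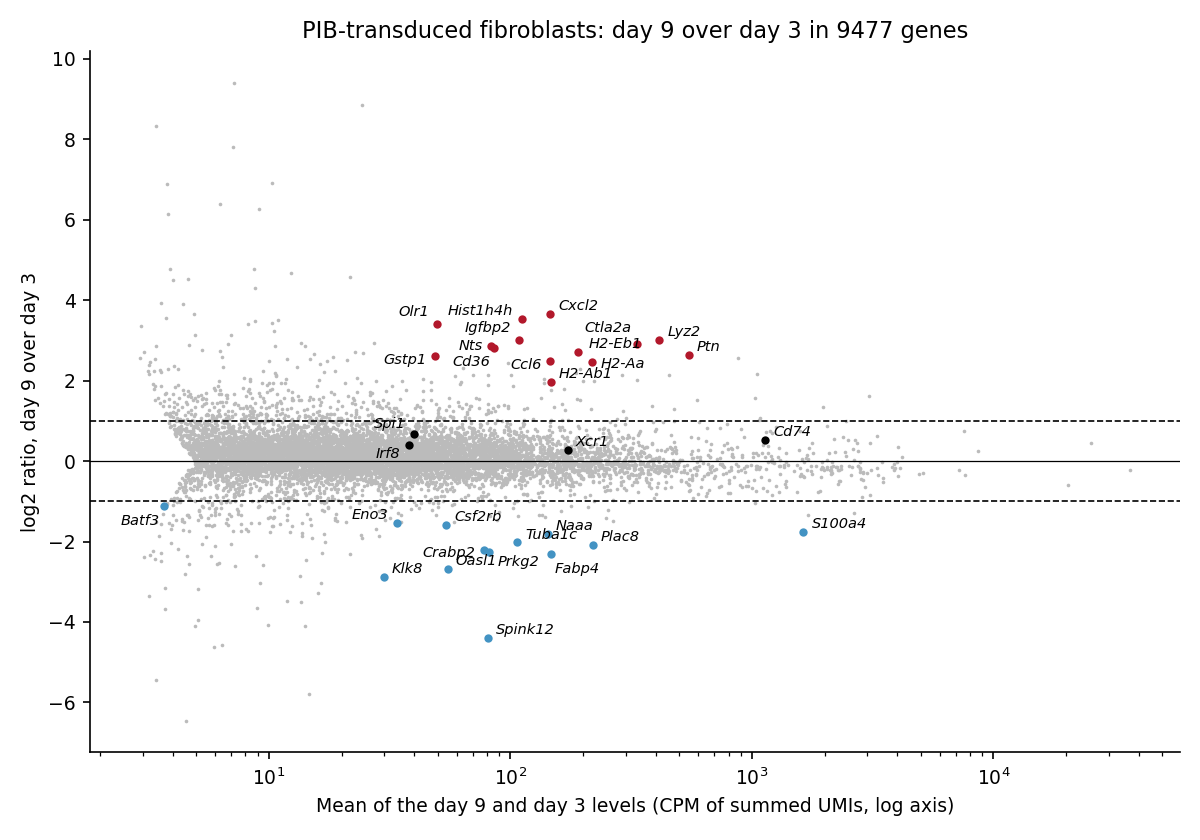
Each point is 1 of 9477 genes, with the mean of its day 9 and day 3 levels in CPM on a log axis and its log2 ratio of day 9 over day 3. Dashed lines mark 2-fold. Cxcl2, at a log2 ratio of 3.65, and Spink12, at -4.41, are the extremes among named genes of at least 50 CPM, while Cd74, Xcr1, Spi1 and Irf8 (black) lie within 2-fold.

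Counted transcripts of the delivered factors' genes were low in CPM at both days and did not differ alike. Spi1 had 49.2 CPM at day 9 and 30.8 CPM at day 3, a ratio of 1.6 (1.49 to 1.71), and 2.11 over the cells with a Spi1 UMI, which all day 3 cells and 441 day 9 cells had. Leaving out day 9 cells without a Spi1 UMI raises the Spi1 ratio by construction. Which of these ratios sets like cells side by side depends on how the day 3 cells were chosen, which was not tested. Irf8 had 43.1 CPM at day 9 and 33 CPM at day 3, a ratio of 1.31 (1.22 to 1.4). Batf3 was the lowest of the 3 and the one that was lower at day 9, with 2.32 CPM at day 9 and 5.0 CPM at day 3, a ratio of 0.464 (0.36 to 0.594). Untransduced MEFs had 0.807 and 0.834 CPM of Batf3, no Spi1 UMI and at most 0.0208 CPM of Irf8, and splenic cDC1 had 359, 1606 and 268 CPM of Spi1, Irf8 and Batf3. Transcripts of the delivered and of the cell's own copies cannot be told apart in these counts. How far transcripts of the delivered copies were counted at all was not tested, so these values are not levels of the delivered factors. Clec9a, whose locus drives the reporter and which cDC1 use to sense dead cells, had no UMI at either day and 336 CPM in splenic cDC1. The labels give Cre on both Clec9a alleles, and whether these alleles yield a counted Clec9a transcript was not tested.

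Of the cDC1 identity genes, 12 of 24 were measured, 1 was higher, 4 were lower and the median log2 ratio was -0.22. Xcr1, the chemokine receptor that marks cDC1, had 189 CPM at day 9 and 156 CPM at day 3, a ratio of 1.21 (1.18 to 1.25), against 424 CPM in splenic cDC1 and 0 and 0.0417 CPM in the MEFs. Lower at day 9 were Naaa, a lysosomal amidase enriched in cDC1, with 63.1 CPM at day 9 and 223 CPM at day 3 and a ratio of 0.283 (0.271 to 0.296), and Cd24a, a surface glycoprotein, with 2.89 CPM at day 9 and 14.9 CPM at day 3 and a ratio of 0.194 (0.158 to 0.237). Cadm1, an adhesion molecule of cDC1, followed with 11.4 CPM at day 9 and 23.1 CPM at day 3 and a ratio of 0.496 (0.443 to 0.554), and Batf3 was the fourth. Tlr3, the sensor of double-stranded RNA, had 11 CPM at day 9 and 12.5 CPM at day 3, below the 24.2 and 22.3 CPM of the MEFs.

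The member that was higher was Cd36, a scavenger receptor, with 150.4 CPM at day 9 and 21.3 CPM at day 3, a ratio of 7.05 (6.59 to 7.54), and 139 CPM in splenic cDC1. Ifi205, an interferon-inducible gene, had 183 CPM at day 9 and 107 CPM at day 3, a ratio of 1.7 (1.64 to 1.77). Flt3, the receptor for the DC growth factor, and Btla had no UMI at either day, and Zbtb46, a transcription factor of conventional DCs, stayed under 1 CPM at both. Of 12 measured DC transcription factors 3 were higher, Klf4, Relb and Ikzf1, and 1 was lower, Nfil3, but under TMM scaling none was higher. Over the cells with a Spi1 UMI, 1 cDC1 member was higher and 3 were lower, Cadm1 having a ratio of 0.561 there.

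**Figure D2:**
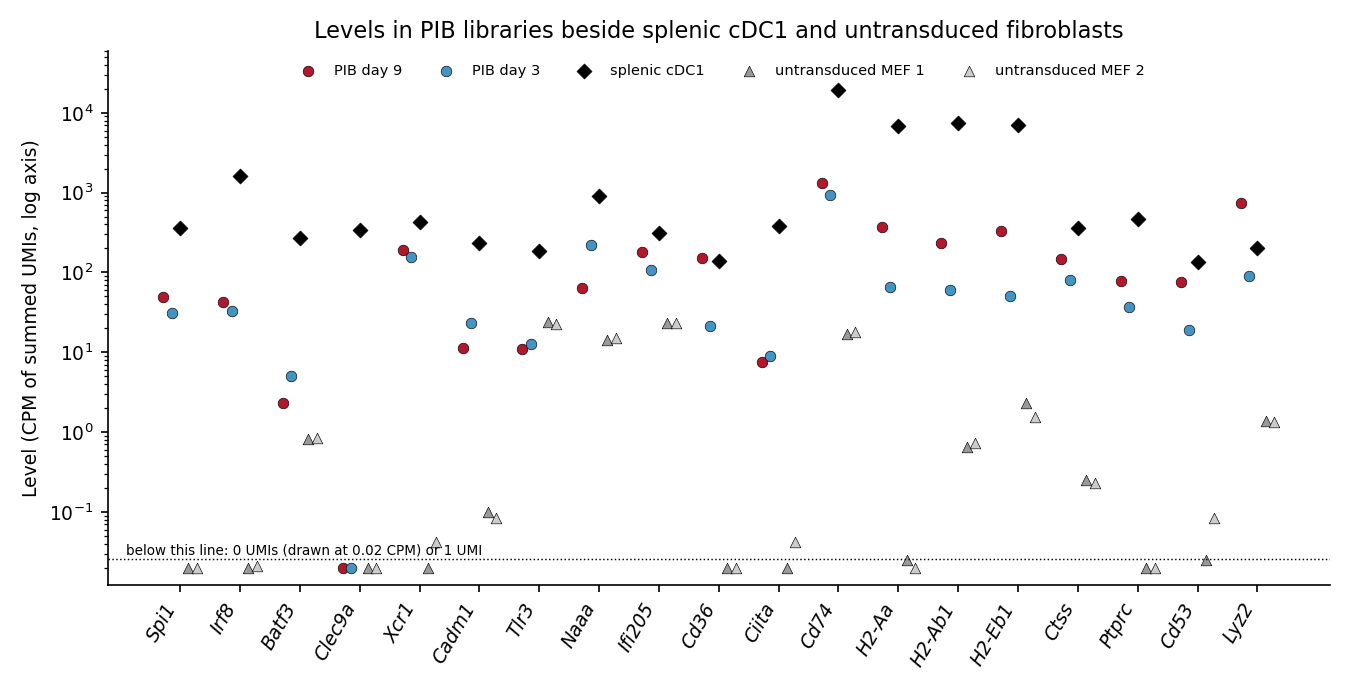
Levels in CPM on a log axis (0 drawn at 0.02) of genes in the PIB day 9 and day 3 libraries, splenic cDC1 and 2 untransduced MEF libraries, 1 point per library. Xcr1 lies at 189 CPM at day 9 and 156 CPM at day 3, below the 424 CPM of splenic cDC1, Clec9a is at 0 in both, and the H2 genes at day 9 lie between day 3 and splenic cDC1.

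Genes for the MHC class II molecule, which shows peptides to CD4 T cells, included 3 members that were higher at day 9. H2-Eb1, a beta chain, had 330.1 CPM at day 9 and 50.5 CPM at day 3, a ratio of 6.53 (6.25 to 6.83). H2-Aa, an alpha chain, had 369.6 CPM at day 9 and 66.6 CPM at day 3, a ratio of 5.55 (5.34 to 5.77), and its partner H2-Ab1 had 234 CPM at day 9 and 59.6 CPM at day 3, a ratio of 3.93 (3.77 to 4.1). Splenic cDC1 had 6951, 6744 and 7497 CPM of the 3 genes and the MEFs at most 2.3 CPM of any, so day 9 stood between them. In the list, 3 of 9 measured members were higher and none was lower (5.55% and 2.32% of all genes), with a median log2 ratio of 0.87.

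The other members stayed within 2-fold. Cd74, the invariant chain that guides class II molecules, had 1339 CPM at day 9 and 929.7 CPM at day 3, a ratio of 1.44 (1.42 to 1.46), against 19155 CPM in splenic cDC1. H2-DMb1, a subunit of the peptide editor, had 67.2 CPM at day 9 and 35.7 CPM at day 3, a ratio of 1.88 (1.77 to 2.0), and 2.10 over cells with a Spi1 UMI. Ctss, the protease that cuts the invariant chain, had 146 CPM at day 9 and 79.9 CPM at day 3, a ratio of 1.83 (1.75 to 1.9). Ciita, the coactivator that class II genes depend on, had 7.54 CPM at day 9 and 8.93 CPM at day 3, a ratio of 0.844 (0.725 to 0.982), against 386 CPM in splenic cDC1.

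The promoters of H2-Aa and H2-Eb1 are shown because these genes lead the difference and because class II promoters are known for a conserved Y box, read by NF-Y. In the 250 bases before the start of each gene (RefSeq, GRCm38.p6), capitals mark the letters CTGATTGG, searched on both strands. H2-Aa spans chr17:34287824-34288073 on the minus strand and H2-Eb1 chr17:34305617-34305866 on the plus strand.
H2-Aa: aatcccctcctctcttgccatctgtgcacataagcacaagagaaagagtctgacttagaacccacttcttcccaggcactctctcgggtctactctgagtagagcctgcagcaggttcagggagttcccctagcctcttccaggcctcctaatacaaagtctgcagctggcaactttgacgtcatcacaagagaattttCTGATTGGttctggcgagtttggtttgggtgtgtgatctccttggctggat
H2-Eb1: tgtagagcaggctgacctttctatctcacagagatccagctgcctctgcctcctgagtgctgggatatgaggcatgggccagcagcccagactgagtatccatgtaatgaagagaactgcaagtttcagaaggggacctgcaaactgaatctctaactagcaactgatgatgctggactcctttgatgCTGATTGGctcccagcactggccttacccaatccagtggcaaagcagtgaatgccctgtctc
The letters were in 1258 of 32851 such promoters (3.83%) and in 4 of the 10 class II list members with an entry, namely H2-Aa, H2-Eb1, H2-Eb2 and H2-Oa. H2-Eb2 and H2-Oa had no UMI at either day. A match describes the letters and does not show binding.

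Counted per cell, with each cell thinned to 10000 UMIs (601 cells at day 9 and 705 at day 3), the class II RNAs were spread unevenly over cells at both days. The sum of Cd74, H2-Aa, H2-Ab1 and H2-Eb1 had a median of 1 UMI and a 90th percentile of 78 at day 9, against a median of 4 and a 90th percentile of 35.6 at day 3. It was 0 in 42.8% of day 9 cells (exact 95% interval 38.8 to 46.8) and in 18.9% of day 3 cells (16 to 22), in 85.2% and 84.3% of MEFs, and its median in splenic cDC1 was 402. The tenth of cells with most Cd74 held 67.3% of Cd74 UMIs at day 9 and 47.0% at day 3. Over 2542 genes of at least 50 CPM at both days the median of this share was 32.7% at day 9 and 32.1% at day 3. For H2-Aa it was 86.0% at day 9 and 85.4% at day 3, so most of its UMIs came from a small set of cells at both days.

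For Cd74, Xcr1 and the class II sum the share of cells with a UMI went against the CPM, and no order of the days is read from it. Median depth before thinning was 64579 UMIs at day 9, 67270 at day 3 and 18100 and 25927.5 in the MEFs. Cd74 was seen in 50.6% of thinned day 9 cells and 79.9% of day 3 cells (75.2% and 98.2% without thinning), and in 12.8% and 14.2% of MEFs. Xcr1 was seen in 43.9% of thinned day 9 cells and 55.2% of day 3 cells (65.9% and 82% without thinning), and in none of the thinned MEF cells. For the H2 genes share and CPM ran the same way, as H2-Eb1 was seen in 30.1% of thinned day 9 cells, 18.7% of day 3 cells and 1.97% and 1.16% of MEFs. Xcr1, Cd74 and an H2 class II gene were seen together in 21.0% of day 9 cells (17.8 to 24.4) and 20.1% of day 3 cells (17.2 to 23.3).

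**Figure D3:**
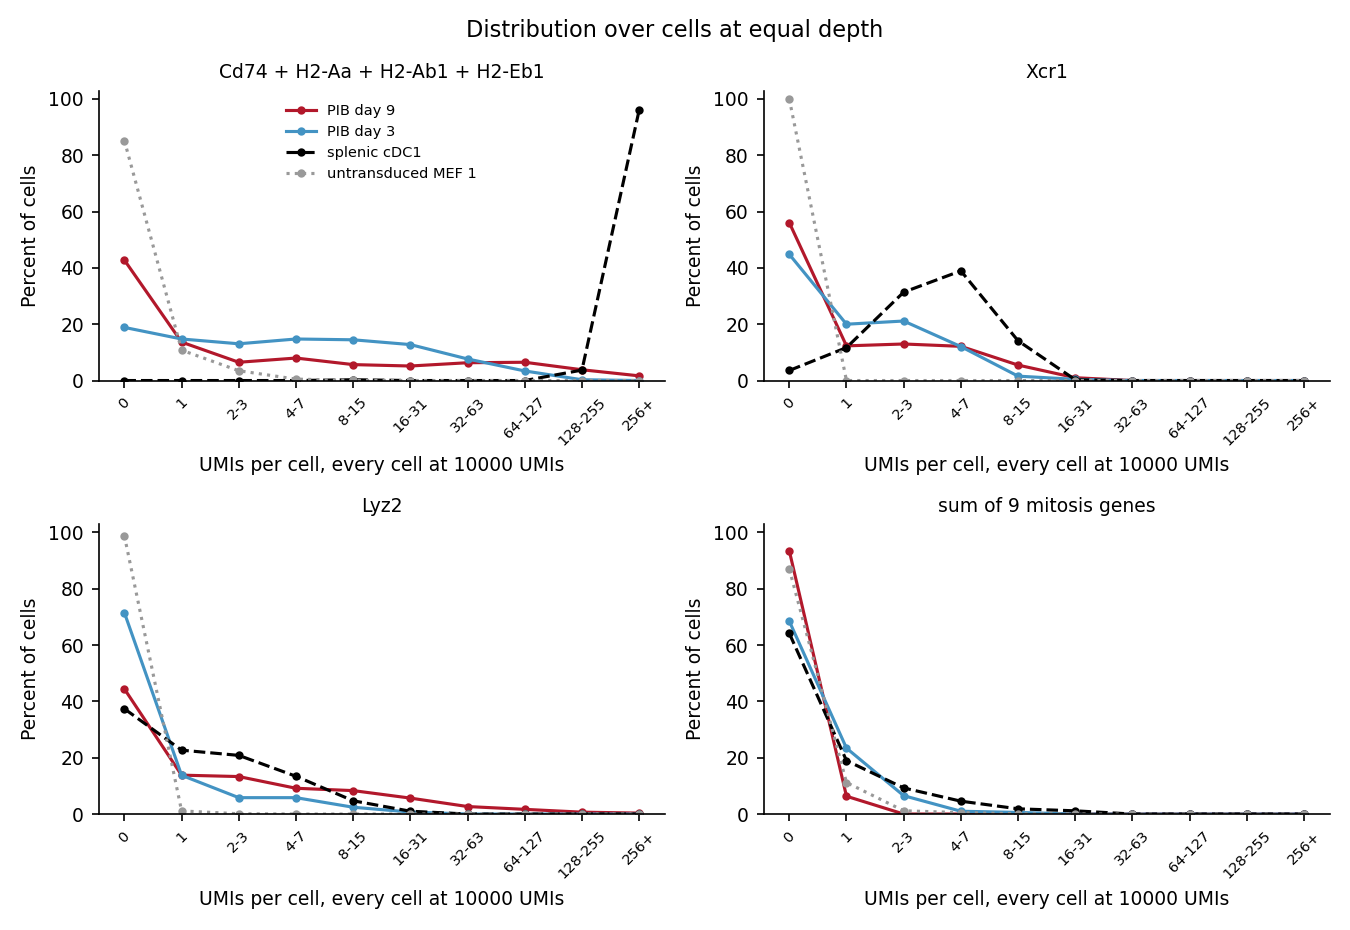
Percent of cells by the number of UMIs a cell has of the class II sum, Xcr1, Lyz2 or 9 mitosis genes, every cell thinned to 10000 UMIs. At day 9 the class II sum is at 0 in 42.8% of cells and reaches further to the right than at day 3, where 18.9% are at 0.

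MHC class I and cross-presentation genes did not differ in this way. None of 19 measured members was higher or lower, and the median log2 ratio was -0.12. H2-K1 and H2-D1, class I heavy chains, had ratios of 1.32 (1.3 to 1.34) and 1.27 (1.25 to 1.28). Nearest to the lower limit were the immunoproteasome subunits Psmb8, with 274 CPM at day 9 and 514 CPM at day 3, and Psmb9, with 52.2 CPM at day 9 and 99.9 CPM at day 3. Under TMM scaling 2 of the 19 counted as lower.

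Of the genes for costimulation and DC maturation, 7 of 12 measured were higher and none was lower, with a median log2 ratio of 1.19. Cd40, the receptor for T cell help, had 19 CPM at day 9 and 4.58 CPM at day 3, a ratio of 4.15 (3.56 to 4.85). Il12b, a subunit of IL-12, had 9.11 CPM at day 9 and 0.718 CPM at day 3, a ratio of 12.7 (8.92 to 18.6), which was 6.74 over cells with a Spi1 UMI. Icosl, a ligand of the T cell receptor ICOS, had 10.9 CPM at day 9 and 1.65 CPM at day 3, a ratio of 6.63 (5.2 to 8.55). Cd86, a costimulatory ligand, was not among them, with 8.49 CPM at day 9 and 14.3 CPM at day 3 and a ratio of 0.592 (0.518 to 0.677). Ccr7, the homing receptor of migrating DCs, had no UMI at either day.

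The chemokines, the signals that draw leukocytes, were mostly higher at day 9. Of 20 measured members 13 were higher and 1 was lower, with a median log2 ratio of 1.63. Cxcl2, a neutrophil attractant, had the highest ratio of all genes with at least 50 CPM that were named, with 271 CPM at day 9 and 21.5 CPM at day 3 and a ratio of 12.6 (11.8 to 13.4). Its neighbour Cxcl1 had 471 CPM at day 9 and 108 CPM at day 3, a ratio of 4.37 (4.24 to 4.51). Ccl5, which draws T cells, had 1712 CPM at day 9 and 383 CPM at day 3, a ratio of 4.47 (4.39 to 4.54), and Ccl6, a myeloid chemokine, had 247 CPM at day 9 and 43.7 CPM at day 3, a ratio of 5.66 (5.4 to 5.94).

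The most abundant members did not all follow. Ccl8, a monocyte attractant, had 2823 CPM at day 9 and 1105 CPM at day 3, a ratio of 2.56 (2.53 to 2.58). Ccl2 and Ccl7, monocyte attractants that fibroblasts make, had 3438 and 3483 CPM at day 9 and day 3 for Ccl2 and 1642 and 1658 CPM for Ccl7, ratios of 0.987 and 0.99. Cxcl5 was the member that was lower, with 74.6 CPM at day 9 and 189 CPM at day 3, a ratio of 0.395 (0.379 to 0.412), against 7478 and 7541 CPM in the MEFs.

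The promoters of Cxcl2 and Cxcl1 are shown because both genes differed and because they are known targets of NF-kB. Capitals mark the kB letters GGAATTTCC, searched on both strands, in the 250 bases before the start (RefSeq, GRCm38.p6). Cxcl2 spans chr5:90903649-90903898 and Cxcl1 chr5:90890995-90891244, both on the plus strand.
Cxcl2: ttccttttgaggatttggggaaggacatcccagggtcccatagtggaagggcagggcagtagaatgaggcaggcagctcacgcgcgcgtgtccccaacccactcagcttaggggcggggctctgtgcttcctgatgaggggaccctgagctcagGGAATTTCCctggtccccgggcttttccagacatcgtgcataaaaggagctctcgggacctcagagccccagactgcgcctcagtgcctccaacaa
Cxcl1: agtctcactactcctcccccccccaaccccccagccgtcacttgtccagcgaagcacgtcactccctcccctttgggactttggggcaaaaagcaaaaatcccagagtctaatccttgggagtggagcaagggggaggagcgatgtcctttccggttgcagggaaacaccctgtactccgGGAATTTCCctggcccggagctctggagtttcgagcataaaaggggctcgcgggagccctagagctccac
These letters were in 94 of 32851 promoters (0.286%) and in 4 of the 17 chemokine members with an entry, namely Cxcl1, Cxcl2, Cxcl3 and Cxcl10. Cxcl3 had 5.83 CPM at day 9 and 8.34 CPM at day 3, a ratio of 0.70 (0.591 to 0.826) and 0.435 without the 4 Tyrobp-rich cells, so the letters were shared by members with ratios above and below 1.

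Inflammatory cytokines and acute phase genes were higher in 10 of 15 measured members and lower in none, with a median log2 ratio of 1.3. Saa3, an acute phase protein and the most abundant of them, had 4589 CPM at day 9 and 1496 CPM at day 3, a ratio of 3.07 (3.04 to 3.09). Tnf had 16.8 CPM at day 9 and 0.612 CPM at day 3, a ratio of 27.4 (18.9 to 41.3). Il1b had 136 CPM at day 9 and 51.4 CPM at day 3, a ratio of 2.65 (2.52 to 2.78), Il6 had 39.9 CPM at day 9 and 14.2 CPM at day 3, a ratio of 2.82 (2.57 to 3.09), and Csf1, the growth factor of macrophages, had 282 CPM at day 9 and 96.6 CPM at day 3, a ratio of 2.92 (2.82 to 3.03). Ptgs2, which makes prostaglandins, had 132 CPM at day 9 and 219 CPM at day 3, a ratio of 0.603 (0.584 to 0.624).

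Macrophage and monocyte genes were higher in 9 of 15 measured members and lower in 1, with a median log2 ratio of 1.8, and 4 cells set several of these values. The summed level of the 22 listed genes was 2199 CPM at day 9 and 872.5 CPM at day 3, of which Spp1, a secreted phosphoprotein that the MEFs make too, gave 1038 CPM at day 9 and 546 CPM at day 3. The sum was higher in the untransduced MEFs, at 7540.2 and 7632.7 CPM with 7358 and 7454 CPM from Spp1, and was 504 CPM in splenic cDC1. The 4 cells with at least 100 Tyrobp UMIs held 0.392% of the day 9 UMIs but 98.2% of those of C1qa, 84.5% of C1qb, 87.0% of Adgre1 and 68.9% of Mmp12. They had 2 UMIs of Col1a2 in all and 5 of Xcr1. Without them 5 members were higher and 1 was lower, and Apoe, C1qb, C1qc and Mmp12 had ratios of 1.86, 0.882, 1.6 and 1.09.

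Lyz2, the lysozyme of macrophages and neutrophils, was higher with and without these cells. It had 734 CPM at day 9 and 90.9 CPM at day 3, a ratio of 8.07 (7.82 to 8.34), and 7.14 without the 4 cells. It was seen in 55.6% of thinned day 9 cells, 28.5% of day 3 cells and 1.21% and 1.11% of MEFs. Ccr2, the receptor of inflammatory monocytes, had 116 CPM at day 9 and 50 CPM at day 3, a ratio of 2.32 (2.21 to 2.44). Gpnmb was the lower member, with 28.4 CPM at day 9 and 65.9 CPM at day 3, a ratio of 0.431 (0.402 to 0.462). Cd5l had no UMI at either day.

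General leukocyte genes were split, with 6 of 13 measured higher and 2 lower. Without the 4 Tyrobp-rich cells 4 were higher and 2 lower. Ptprc, which encodes CD45, had 78.5 CPM at day 9 and 37.4 CPM at day 3, a ratio of 2.1 (1.98 to 2.23) that was under 2 with TMM scaling, and splenic cDC1 had 471 CPM. Cd53, a leukocyte tetraspanin, had 75 CPM at day 9 and 19.2 CPM at day 3, a ratio of 3.9 (3.62 to 4.21), and was seen in 39.4% of thinned day 9 cells and 12.9% of day 3 cells. Coro1a, an actin regulator of leukocytes, had 45.7 CPM at day 9 and 118 CPM at day 3, a ratio of 0.387 (0.367 to 0.408). Tyrobp and Fcer1g, signalling adaptors, had 14.3 and 17.8 CPM at day 9 against 0 and 4.67 CPM at day 3. Without the 4 cells, Fcer1g had 2.38 CPM at day 9, a ratio of 0.511, and Tyrobp was left with 6 UMIs.

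Among inhibitory and Fc receptors of myeloid cells 5 of 9 measured were higher and none was lower, and 4 were higher without the 4 Tyrobp-rich cells. Lilr4b, a receptor of this list, had 28.9 CPM at day 9 and 12.6 CPM at day 3, a ratio of 2.29 (2.07 to 2.53). Its near copy Lilrb4a had 79.6 CPM at day 9 and 71 CPM at day 3, a ratio of 1.12 (1.07 to 1.18). Clec4a2, a C-type lectin receptor of the cDC2 list, had 20.5 CPM at day 9 (793 UMIs) and 0.169 CPM at day 3 (8 UMIs), a ratio of 121 (61.2 to 282). Clec4n, a fungal sensor, had 7.59 CPM at day 9 and no UMI at day 3, a ratio of 119.8 when 3 counts stand for 0 in that library. The size of this ratio depends on that stand-in count. Of 4 measured cDC2 genes, Clec4a2 was higher and Itgam, an integrin of myeloid cells, was lower, and of 4 pDC genes Irf7 was lower. Siglech and Cd209a, markers of plasmacytoid and type 2 DCs, were at 0 or under 1 CPM at both days. In the granulocyte list 1 gene was measured and was lower, in the lymphocyte list 1 was measured and was neither, and the B and T cell genes Cd79b, Ms4a1, Cd3e and Cd3g had no UMI.

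**Figure D4:**
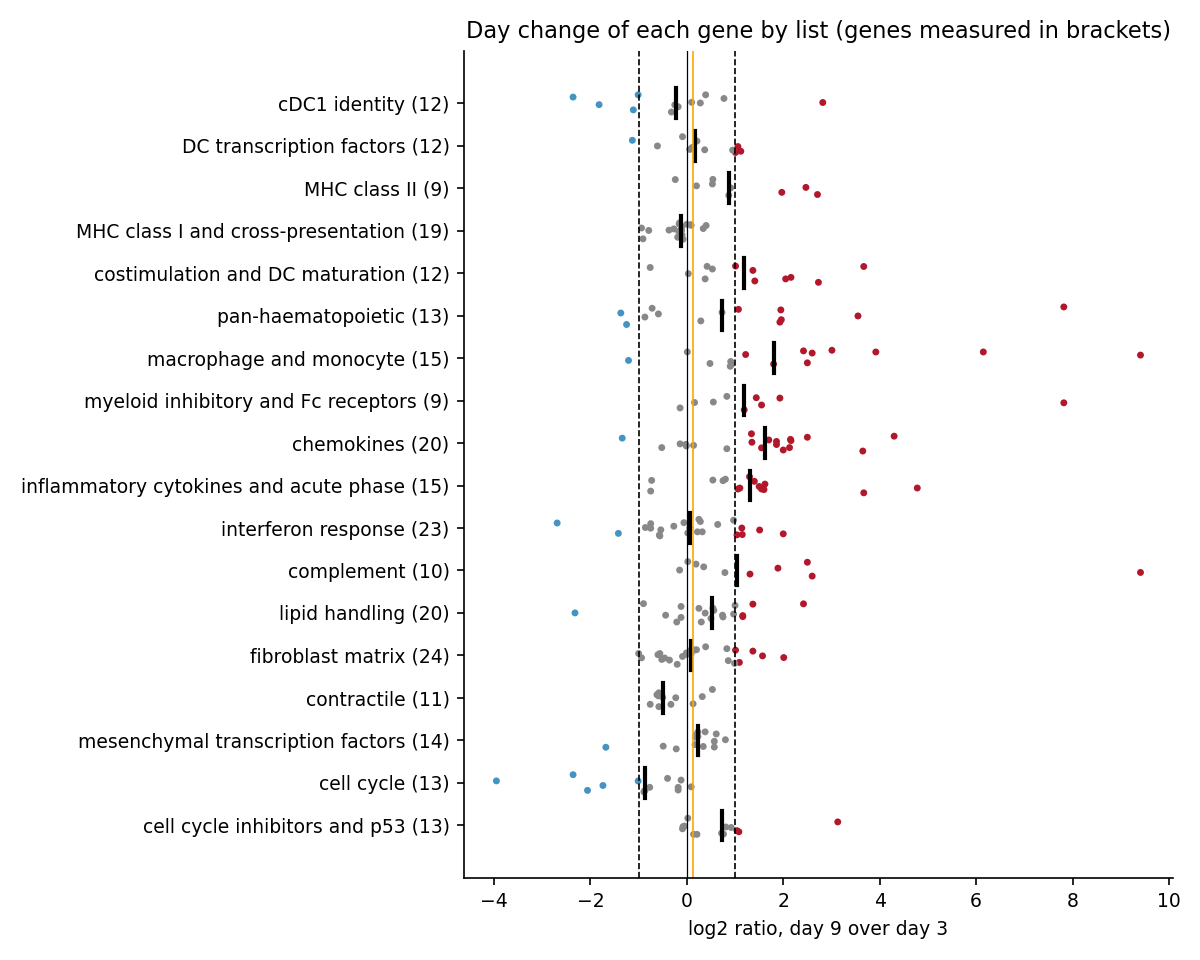
Log2 ratio of day 9 over day 3 for every measured gene of 18 lists, 1 point per gene, with the list's median as a black bar, the median of all measured genes (0.12) as an orange line and 2-fold as dashed lines. The macrophage (1.8), chemokine (1.63) and cytokine (1.3) medians lie to the right of 2-fold, and the cell cycle median (-0.87) lies furthest to the left. All day 9 cells are included. Without the 4 Tyrobp-rich cells 5 of the 15 macrophage genes were higher, against 9 with them, so that median was then under 2-fold.

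The interferon response had no common direction, with 5 of 23 measured members higher, 2 lower and a median log2 ratio of 0.06. Oasl1 and Irf7, both induced by type I interferon, were lower. Oasl1 had 14.7 CPM at day 9 and 95.1 CPM at day 3, a ratio of 0.155 (0.142 to 0.169), and Irf7 had 136 CPM at day 9 and 362 CPM at day 3, a ratio of 0.375 (0.363 to 0.387). Cxcl10, also a chemokine, had 320.1 CPM at day 9 and 80 CPM at day 3, a ratio of 4.0 (3.86 to 4.15), and Gbp2, a guanylate-binding protein, had 64.2 CPM at day 9 and 22.5 CPM at day 3, a ratio of 2.85 (2.66 to 3.07). The most abundant members, Bst2 and Isg15, had ratios of 0.595 (0.589 to 0.601) and 0.676 (0.668 to 0.684). With DESeq2 size factors the counts were 2 higher and 3 lower.

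Complement genes were higher in 5 of 10 measured members and in 3 without the 4 cells. Cd55, an inhibitor of complement on host cells, had 139 CPM at day 9 and 56.2 CPM at day 3, a ratio of 2.47 (2.36 to 2.59). Lysosome and phagocytosis genes were higher in 1 of 17 measured members, Cd36, and lower in 1, Lgmn, a lysosomal protease with 76.7 CPM at day 9 and 200.2 CPM at day 3. Each count was 5.88% of the list, against 5.55% of all genes higher and 2.32% lower. Pattern recognition receptors were higher in 2 of 9, Clec4n and Tlr2, and lower in none. Lipid handling genes were higher in 4 of 20 measured members and lower in 1. Pltp, the phospholipid transfer protein, had 554 CPM at day 9 and 215 CPM at day 3, a ratio of 2.58 (2.52 to 2.64), and Fabp4, a fatty acid carrier, was the lower one with 49.2 CPM at day 9 and 245 CPM at day 3, a ratio of 0.201 (0.191 to 0.211). Of 18 stress genes 3 were higher, among them Hmox1, which breaks down haem, with 874 CPM at day 9 and 306 CPM at day 3, a ratio of 2.86 (2.8 to 2.91); under TMM scaling 1 of the 18 was higher.

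Fibroblast genes were present at both days. All 24 matrix genes were measured, 5 were higher, none was lower and the median log2 ratio was 0.08, while under TMM scaling 3 were higher and 2 lower. Postn, a matricellular protein, had 538 CPM at day 9 and 133 CPM at day 3, a ratio of 4.04 (3.93 to 4.16), and Dcn, a small proteoglycan, had 201 CPM at day 9 and 67.9 CPM at day 3, a ratio of 2.96 (2.84 to 3.09). Col1a2 had 1920.3 CPM at day 9 and 1673 CPM at day 3, a ratio of 1.15 (1.14 to 1.16), and Col1a1 had 148 CPM at day 9 and 295 CPM at day 3, a ratio of 0.501 (0.486 to 0.517), so the ratios of the genes for both chains of type I collagen lay on opposite sides of 1. The summed level of the 24 genes was 10358.7 CPM at day 9 and 7695.7 CPM at day 3, against 36530.9 and 36148.6 CPM in the MEFs and 1.89 CPM in splenic cDC1.

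None of 11 contractile genes was higher or lower, and their median log2 ratio was -0.5. Acta2, smooth muscle actin, had 435 CPM at day 9 and 650.0 CPM at day 3, a ratio of 0.669 (0.657 to 0.682). In the day 9 library it had 344 CPM in cells with a Spi1 UMI and 718 CPM in the 175 cells without one. Summed matrix genes had 10278.1 CPM and 10610.2 CPM in these same classes, and MHC class II genes 2721.9 CPM and 2346.3 CPM. Of 14 mesenchymal transcription factors 1 was lower, Snai1, with 3.82 CPM at day 9 and 12.2 CPM at day 3, a ratio of 0.313 (0.26 to 0.376), while Twist1 had 97.1 CPM at day 9 and 65.5 CPM at day 3 and Prrx1 108 CPM at day 9 and 96 CPM at day 3.

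Cell cycle genes were lower at day 9 in 5 of 13 measured members and higher in none, with a median log2 ratio of -0.87. The 5 were Ube2c, Top2a, Cenpa and Birc5, which act in mitosis or chromosome condensation, and Mcm6, a subunit of the replication helicase. Ube2c had 0.619 CPM at day 9 and 9.58 CPM at day 3, a ratio of 0.0646 (0.041 to 0.0974), and Top2a had 1.5 CPM at day 9 and 7.66 CPM at day 3, a ratio of 0.195 (0.145 to 0.258). Per thinned cell the sum of 9 mitosis genes was 0 in 93.5% of day 9 cells (91.2 to 95.3) and 68.5% of day 3 cells (64.9 to 71.9), and in 87.0% of cells of the first MEF library. Pcna and Tyms, genes of DNA synthesis, had ratios of 0.883 (0.815 to 0.957) and 1.06 (0.969 to 1.17).

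Of 13 measured cell cycle inhibitors and p53 targets 3 were higher and none was lower, with a median log2 ratio of 0.72; under TMM scaling 1 was higher. Cdkn2a, whose locus encodes p16 and p19Arf, had 1469.9 CPM at day 9 and 694 CPM at day 3, a ratio of 2.12 (2.09 to 2.15). Cdkn1a, which encodes p21, had 1986 CPM at day 9 and 1176 CPM at day 3, a ratio of 1.69 (1.67 to 1.71). Cdkn1c, an imprinted inhibitor, had 8.85 CPM at day 9 and 1.01 CPM at day 3, a ratio of 8.74 (6.45 to 12.1). Of 13 imprinted and fetal growth genes, Mest was the other one that was higher, with 19 CPM at day 9 and 2.03 CPM at day 3, and Igf2, a fetal growth factor, and Dlk1 were lower, with 17.1 CPM at day 9 and 40 CPM at day 3 for Igf2. Xist had 116 CPM at day 9 and 117 CPM at day 3 and Ddx3y 23.5 CPM at day 9 and 24.9 CPM at day 3, so transcripts that depend on the sex of the embryos were alike in both libraries.

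Among the 12 highest ratios of genes with at least 50 CPM were several outside these lists. Hist1h4h, a histone H4 gene, had 205 CPM at day 9 and 17.8 CPM at day 3, a ratio of 11.5 (10.7 to 12.4), and was seen in 79.9% of thinned day 9 cells and 15.6% of day 3 cells. Olr1, a receptor for oxidised lipoprotein, had 90.8 CPM at day 9 and 8.55 CPM at day 3, a ratio of 10.6 (9.58 to 11.8). Igfbp2, which binds insulin-like growth factors, had 193 CPM at day 9 and 24.1 CPM at day 3, a ratio of 8.03 (7.54 to 8.55). Ctla2a, a cysteine protease inhibitor, had 592 CPM at day 9 and 78.8 CPM at day 3, a ratio of 7.51 (7.26 to 7.78), and Nts, the neurotensin precursor, had 147 CPM at day 9 and 20.2 CPM at day 3, a ratio of 7.24 (6.76 to 7.76). Ptn, a growth factor, had 942 CPM at day 9 and 151 CPM at day 3, a ratio of 6.22 (6.07 to 6.38). Gstp1, a glutathione transferase with a near copy in the genome, had 83.8 CPM at day 9 and 13.7 CPM at day 3, a ratio of 6.11 (5.61 to 6.65).

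The 12 lowest ratios were led by Spink12. This gene, a serine protease inhibitor, had 7.25 CPM at day 9 and 154 CPM at day 3, a ratio of 0.047 (0.0416 to 0.053), and was seen in 1.66% of thinned day 9 cells and 23.5% of day 3 cells. Klk8, a serine protease, had 7.15 CPM at day 9 and 52.5 CPM at day 3, a ratio of 0.136 (0.12 to 0.154). Crabp2, which carries retinoic acid, had 27.5 CPM at day 9 and 127.9 CPM at day 3, a ratio of 0.215 (0.201 to 0.229), against 248 and 259 CPM in the MEFs. Plac8 had 83.4 CPM at day 9 and 355 CPM at day 3, a ratio of 0.235 (0.226 to 0.244). S100a4, a calcium-binding protein of fibroblasts and the most abundant of the 12, had 739 CPM at day 9 and 2526 CPM at day 3, a ratio of 0.293 (0.289 to 0.296). Prkg2, a cGMP-dependent kinase, Tuba1c, an alpha tubulin, Csf2rb, the shared receptor chain for GM-CSF and IL-3, and Eno3, an enolase, had ratios of 0.21 (0.197 to 0.224), 0.25 (0.237 to 0.263), 0.329 (0.307 to 0.352) and 0.344 (0.315 to 0.375).

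Whether the day change with PIB differed from that with the other sets was tested on the summed counts of 14 libraries in 7 arms, an arm being a set in a reporter line. The PI8 arm was left out because its day 9 library stood apart, with a median log2 ratio over day 3 of -4.78 for the macrophage list and -7.05 for the chemokines. That library held 6194472 UMIs, and the libraries of the fit held 2291128 to 89394715. The shallowest in the fit were those of SI8 in the hCD2 line, with 2291128 UMIs at day 3 and 4651950 at day 9. In them Gm42418, AY036118 and Lars2 gave 8.32% of UMIs at day 3 and 10.8% at day 9. The fit (edgeR quasi-likelihood F test, arm as a block, 5 residual degrees of freedom, Benjamini-Hochberg adjustment) called 0 of 17065 genes (0.0%) at an adjusted p under 0.05. The lowest adjusted p was 0.193, 662 genes (3.88%) had an unadjusted p under 0.05, and DESeq2 called 31 (0.182%), 14 higher and 17 lower. The arms are other factor sets, so this test sets PIB against the spread between sets and not against repeat transductions, and the missing calls do not show that the day change was alike.

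Of the 72 named genes past 2-fold, 32 ran the same way as in PIB in at least 6 of the 7 other arms, PI8 included, and 1 in none of them. Some named genes were picked for differing from the other arms, and the share over all genes was not computed. These counts therefore describe the named genes only. Naaa and Oasl1 were lower at day 9, and Hist1h4h higher, in all 7. Lyz2, Cd36, Nts and Ccl6 were higher in 6, the exception being PI8. Igfbp2 was higher in 1 other arm, where its log2 ratio was 0.16 (PI4), against 3.00 in PIB. Csf2rb was lower at day 9 in PIB but higher in 5 other arms, with log2 ratios of -1.60 in PIB and 1.07 to 4.50 in those arms.

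H2-Eb1 had a log2 ratio of 2.71 in PIB and 1.42 and 1.29 in SI8 of the hCD2 line and PIP, and its values in the other arms lay between -3.84 (PI8) and 0.11 (PI4). The edgeR test of PIB against the mean of the other arms gave a log2 difference of -1.88 ± 0.31 (SE, adjusted p = 0.524) for Tuba1c, with adjusted p from 0.325 to 1 under the edgeR alternatives and 1.76e-05 by DESeq2. Enho, which encodes the peptide adropin, had 22.4 CPM at day 9 and 10 CPM at day 3 with PIB and was lower at day 9 in all 7 other arms. Its difference was 2.48 ± 0.34 (SE, adjusted p = 0.264 by edgeR).

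**Figure D5:**
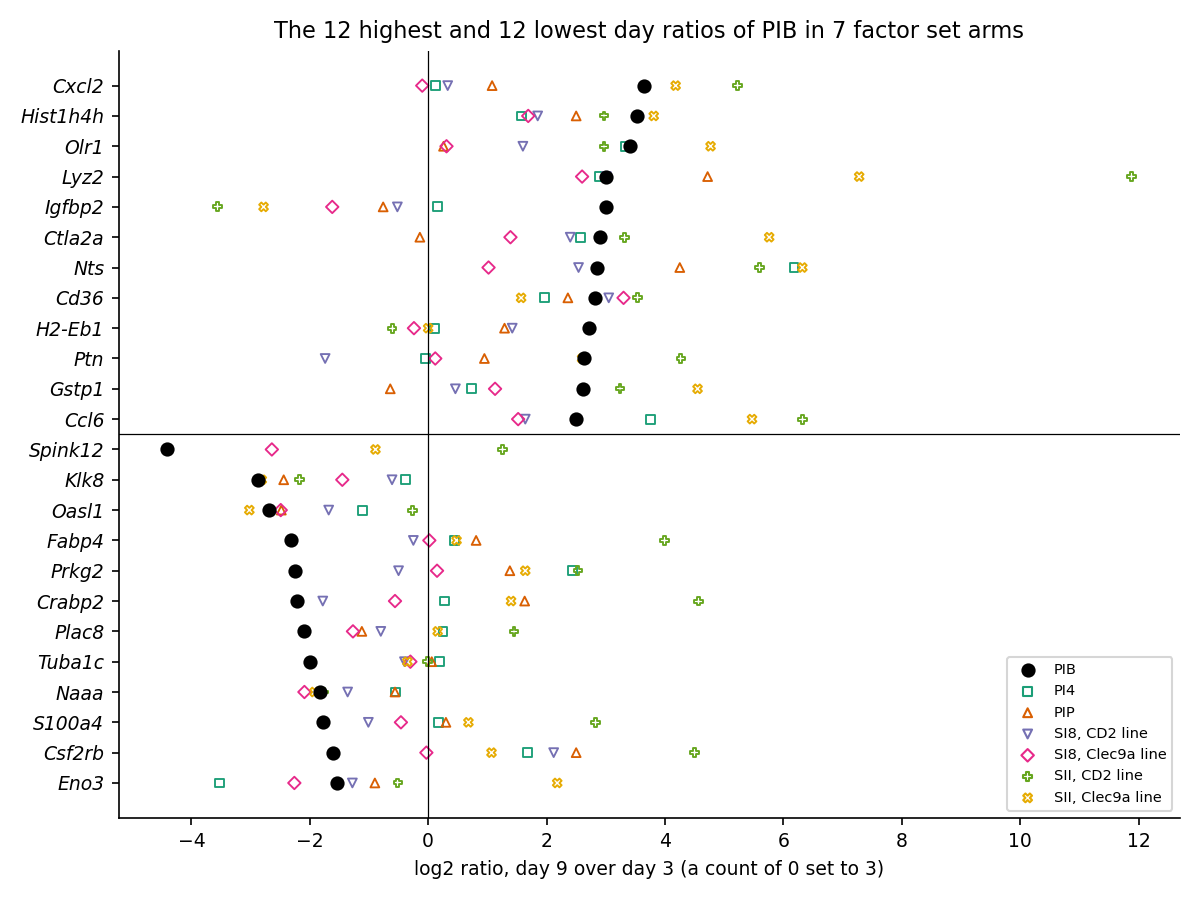
Log2 ratio of day 9 over day 3 for the 12 highest and 12 lowest genes of PIB, 1 symbol per arm, PIB in black and 6 other arms open (PI8 not drawn). Lyz2 and Nts lie to the right of 0 in all 7 arms drawn, while Igfbp2 and Prkg2 in PIB lie apart from the open symbols.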

How the data were processed

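The data are UMI counts per gene and cell, one deposited table of 24455 genes and 25991 cells in 21 libraries. The submitters' processing notes name Cell Ranger 6.0.1, Seurat (version not given in the sources used here) and build mm10, and the filters on cells are not given in the sources used here. The deposited counts were not normalized by the authors, per the values, which are whole numbers with differing cell totals. Cells were assigned to libraries by barcode label. The members and gene lists were chosen with earlier results of these data known.

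UMIs were summed per library and gene and divided by the library's total (CPM). With 1 library per day no test was made between the days, and exact Poisson, conditional binomial and Clopper-Pearson 95% intervals cover counting error only. The labels do not say whether the libraries came from separate cultures. Shares of cells were taken after thinning each cell to 10000 UMIs, which left out 15 day 9 and 2 day 3 cells. Scrublet (in scanpy 1.11.5) marked 7 day 9 and 13 day 3 cells as doublets, which were kept. A day 3 count of 0 was set to 3 counts in ratios. Named genes were the delivered factors, Clec9a, Xcr1, the 12 highest and 12 lowest ratios among genes of at least 50 CPM, up to 6 most abundant members of each list and the 8 lowest adjusted p in each direction of the test between arms. Other genes named, such as list members past 2-fold or markers at 0, were chosen after their values were seen.

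The test between arms used edgeR 4.0.16 (quasi-likelihood F test, TMM, filterByExpr, two-sided) on summed counts, with DESeq2 1.42.0 as an alternative. The days of an arm are blocked because the labels give both days of an arm the same factor set and reporter line. The fit was tested on simulated data. Genes with near-identical copies (H2 genes, Lilr4b and Lilrb4a, Gstp1, Hist1h4h) have uncertain values, because reads may be shared between the copies. Promoter sequences are RefSeq's on GRCm38.p6.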

Additional observations from a re-analysis of the deposited data

Results flagged for a closer look

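Enho, which encodes the peptide adropin, had 22.4 CPM at day 9 and 10 CPM at day 3 with PIB, a log2 ratio of 1.15 on the CPM scale, and was lower at day 9 in all 7 other arms. In the edgeR fit, which left out PI8 and used TMM scaling, the mean log2 day change of the other 6 arms was -1.46. The difference of PIB from that mean was 2.48 ± 0.34 on the log2 scale (SE) with an adjusted p of 0.264 by edgeR's quasi-likelihood test (0.169 to 1 under its alternatives) and 1.6e-06 by DESeq2, so it passed the threshold by DESeq2 and not by edgeR. The gene drew attention because every other arm moved the opposite way. With DESeq2 size factors its log2 ratio in PIB was 0.99, just under 2-fold.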

How the results depend on the processing

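The count of genes at least 2-fold apart was 746. It was 1444 with a minimum of 1 CPM, 4246 with no filter and 177 with a minimum of 50 CPM, where the genes tested changed by construction. It lay between 698 (DESeq2 size factors) and 878 (cells thinned to 10000 UMIs) under the other alternatives, and 613 of the 746 were also past 2-fold with TMM scaling. The share of higher calls was 70.5%, against 55.6% with TMM scaling and 53.7% with DESeq2 size factors. Chosen after seeing the data, leaving out the 4 Tyrobp-rich cells gave 742 genes, and keeping day 9 and day 3 cells with a Spi1 UMI gave 779. Fcer1g turned to a log2 ratio of -0.97 without the 4 cells and -1.02 without them among cells with a Spi1 UMI. Of 72 named genes past 2-fold, 16 fell short under at least 1 setting, among them Ptprc, Relb, Klf4, Timp1, Cdkn2a, Txnrd1 and Batf3. The day order of the share of cells held at 5000, 10000 and 20000 UMIs and without thinning for 10 of 13 genes. The exceptions were Spi1, Irf8 and Ptprc. In the test between arms edgeR called 0 genes under each alternative, with 211 to 787 genes at an unadjusted p under 0.05 where the arm block was kept, and DESeq2 called 31, the cause of which was not tested. With no replicate block edgeR called 0 genes and 100 had an unadjusted p under 0.05. With 1 library per day, no replicate could be left out within PIB.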
